A study of Mus musculus with 13 samples.

Results

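Ccn1, Ccn2, Crim1, Amotl2, Ankrd1 and Ajuba, 6 genes commonly used as targets of the transcriptional coactivator YAP, were described by their H3K27ac ChIP-seq peaks in 9 mouse melanoma cell lines. For each of these 6 genes, of 21755 protein-coding genes in the annotation, all peaks overlapping the gene body and 50 kb on each side were collected, which gave 168 of the 256200 peaks in the 9 lists. The peaks merged into 40 elements, of 59604 merged regions in all. The genes were selected on their standing as YAP targets and on the promoter calls of Ccn1, Ccn2 and Crim1 in these lists, which were known, so promoter calls and promoter widths are given as a description with no test. Distal coverage had not been used in the choice, although it comes from the same lists.

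YAP and its relative TAZ are held in the cytoplasm when the Hippo kinases LATS1 and LATS2 phosphorylate them. When they reach the nucleus they bind TEAD transcription factors, which recognise the hexamer GGAATG, and they raise transcription from promoters and from enhancers that often lie far from the gene. E-cadherin junctions are among the upstream inputs of the Hippo kinases. H3K27ac, acetylation of lysine 27 of histone H3, marks active promoters and enhancers.

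The lines came from tumours of Tyr::NRAS Q61K mice that were heterozygous for Cdkn2a and carried floxed Cdh1, the E-cadherin gene, on a C57BL/6J background. The transgene is driven by the promoter of tyrosinase, a pigment cell gene. In the ΔEcad mice, Tyr::CreA, a Cre driven by the same promoter, had also deleted Cdh1, whereas the Ecad mice kept it, and peak lists do not check this deletion. Ma_1007 and Ma_1181 were male Ecad lines and Ma_1014 and Ma_1039 female Ecad lines. Ma_1062 and Ma_1456 were male ΔEcad lines and Ma_1057, Ma_1064 and Ma_1069 female ΔEcad lines. The lines were untreated, each had 1 peak list, and a p-value measures the spread between lines.

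A list gives the peaks past a threshold and no read counts, so the depth is unknown and a missing peak is not evidence that the mark was absent. The lists held 20741 to 41663 peaks. The 3 female ΔEcad lists called 5556 to 7318 protein-coding promoters, against 8420 to 10661 in the other 6. Their median −log10 q was 20.3 to 22.9, against 27 to 42.2. This difference moved with every lower value of the female ΔEcad lists given here, and its part in them was not tested. Of 7 melanocyte lineage markers (Sox10, Mitf, Dct, Tyr, Tyrp1, Pmel and Mlana) 6 or 7 had a called promoter in every list, and Tyrp1 was the one that lacked it in 3 lists. None of 4 leukocyte and 4 epithelial markers was called in any list, and 1 of 6 fibroblast markers, Pdgfra, and 1 of 4 endothelial markers, Tek, were called, both in Ma_1007 only. Actb and Gapdh were called in all 9 lists.

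Sequences of these genes show where the TEAD hexamer lies relative to annotated starts and to the summits of distal peaks. Of the 6 genes, 5 were found in the RefSeq promoter table (GRCm38.p6), and all 5 held at least 1 GGAATG, read on both strands, in the 250 bases before the annotated start. Ajuba and Ankrd1 held 2. Over the 32851 promoters of the table, 12.6% held at least 1 copy and 1.02% at least 2. The AP-1 site TGANTCA was in 0 of the 5 and in 6.75% of all promoters. Ccn2 is the member that was not matched. A match is a run of letters and not a bound site. The promoters of Ccn1, Ajuba and Crim1 are shown whole, as genes called in 2 lists, in all 9 and in the 4 Ecad lists. The windows of Amotl2 and Ankrd1 overlap annotated exons of these genes and are not shown whole. That of Crim1 overlaps an exon of another annotated gene, AC154366.4. All are written in the direction of transcription with the hexamer, or its complement CATTCC, in capitals.

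Ccn1 promoter, chr3:145649986-145650235, minus strand: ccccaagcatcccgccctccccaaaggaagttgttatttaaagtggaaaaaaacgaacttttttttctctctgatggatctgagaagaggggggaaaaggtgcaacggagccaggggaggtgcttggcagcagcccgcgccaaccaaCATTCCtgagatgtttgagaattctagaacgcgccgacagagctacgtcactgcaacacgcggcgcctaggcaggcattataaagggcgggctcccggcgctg

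Ajuba promoter, chr14:54577662-54577911, minus strand: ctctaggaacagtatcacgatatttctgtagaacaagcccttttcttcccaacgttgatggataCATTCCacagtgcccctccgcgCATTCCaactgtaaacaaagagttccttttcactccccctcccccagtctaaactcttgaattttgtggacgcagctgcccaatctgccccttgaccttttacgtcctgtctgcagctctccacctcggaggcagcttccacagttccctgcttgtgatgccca

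Crim1 promoter, chr17:78199998-78200247, plus strand: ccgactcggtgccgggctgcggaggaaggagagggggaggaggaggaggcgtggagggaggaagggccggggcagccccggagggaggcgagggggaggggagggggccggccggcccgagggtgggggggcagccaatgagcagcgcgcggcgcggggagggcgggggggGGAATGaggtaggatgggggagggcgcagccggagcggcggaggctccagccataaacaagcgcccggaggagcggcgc

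The hexamer began 103 bases before the start of Ccn1, 79 before that of Crim1, and 186 and 164 before that of Ajuba. A hexamer was not always under a called promoter peak. That of Ccn1 and those of Ankrd1 lay in no peak of any list, and that of Crim1 lay outside the promoter peak of Ma_1181. That of Amotl2 lay outside the promoter peaks of the female ΔEcad lines Ma_1057 and Ma_1069. For Amotl2 and Ankrd1 24 bases around the site are shown, which began 65 bases before the start of Amotl2 and 210 and 123 before that of Ankrd1.

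Amotl2 site, chr9:102717730-102717753, plus strand: aaactctcaCATTCCtggcatagc

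Ankrd1 site, chr19:36120040-36120063, minus strand: actgccaaaGGAATGaccctctca

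Ankrd1 site, chr19:36119953-36119976, minus strand: actaagtctGGAATGaaaattcac

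Of the 20 distal elements, defined as more than 1 kb from every annotated transcription start site (TSS), 2 held the hexamer in the 300 bases around the median peak summit, or 10%, against 15.4% of all merged regions. The AP-1 site was in 4, or 20%, against 9.91%. The merged regions include promoter regions, so these shares are not of distal regions alone. The distal element of Ccn2 that was called in the most lists and the Crim1 element called in the female ΔEcad lists alone are shown, since both recur in the results. The first has 1 hexamer in this window. The second has none in the window, and 2 hexamers and 3 AP-1 sites in its whole length of 2076 bp.

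Ccn2 element at −22.6 kb, chr10:24573542-24573841, plus strand: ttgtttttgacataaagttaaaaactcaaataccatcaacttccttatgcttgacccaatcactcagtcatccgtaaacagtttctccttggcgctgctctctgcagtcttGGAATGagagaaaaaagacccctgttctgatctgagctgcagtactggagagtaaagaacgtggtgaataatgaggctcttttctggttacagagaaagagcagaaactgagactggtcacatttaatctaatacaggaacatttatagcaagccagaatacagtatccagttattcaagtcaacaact

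Crim1 element at 47.5 kb, chr17:78247406-78247705, plus strand: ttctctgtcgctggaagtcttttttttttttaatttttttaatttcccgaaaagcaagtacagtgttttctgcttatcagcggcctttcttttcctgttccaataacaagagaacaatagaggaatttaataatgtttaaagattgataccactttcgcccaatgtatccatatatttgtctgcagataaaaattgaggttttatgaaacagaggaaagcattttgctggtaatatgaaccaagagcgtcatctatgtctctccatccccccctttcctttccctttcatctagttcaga

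A promoter was called where a peak lay within 1 kb of any annotated TSS of the gene. The members fell into 3 kinds. Amotl2 and Ajuba were called in all 9 lists, as were 21.2% of protein-coding genes. Ankrd1 was called in none, as were 46.7%. Ccn1, Ccn2 and Crim1 were called in 2, 5 and 4 lists, and none of these calls was in a female ΔEcad list. The number of the 6 promoters called was 4, 4, 5 and 4 in the Ecad lines Ma_1007, Ma_1181, Ma_1014 and Ma_1039. It was 3 in each male ΔEcad line and 2 in each female ΔEcad line. Ecad and ΔEcad lines thus did not overlap, whereas male and female Ecad lines did. Over all protein-coding genes the genotypes did not overlap either, with 8784 to 10661 promoters called in Ecad and 5556 to 8659 in ΔEcad lists. The difference between the mean of the female ΔEcad lists and that of the other 6 was −1.83 called members. As a share, 33.3% of the members were called in female ΔEcad lists and 63.9% in the others on average, against 29.9% and 42.3% of all protein-coding genes.

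**Figure D1:**
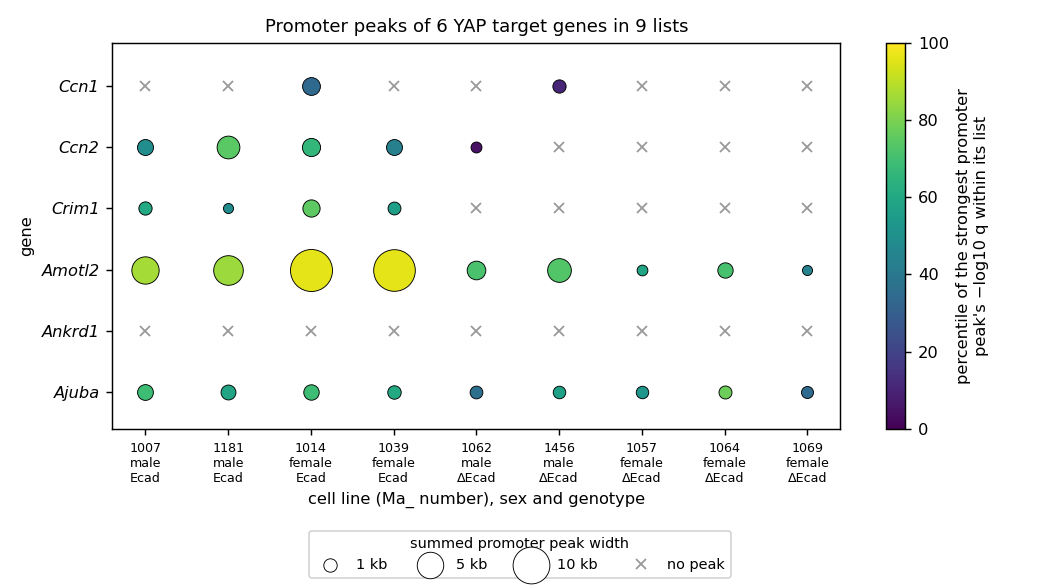
Promoter peaks of the 6 genes (rows) in the 9 lists (columns). The area of a circle grows with the summed width of the promoter peaks in kb, the colour gives the percentile of the strongest promoter peak within its list, and a cross marks no peak; Amotl2 and Ajuba have a circle in all 9 columns, Ankrd1 in none, and Crim1 in the 4 Ecad columns only.

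Ccn1 (ENSMUSG00000028195.4, mm10 chr3:145646976-145649981, minus strand) encodes a secreted matricellular protein that binds integrins, formerly called Cyr61. Its promoter was called in Ma_1014 and Ma_1456, a female Ecad and a male ΔEcad line. In Ma_1014 a pair of peaks of 701 and 1362 bp flanked the TSS without covering it. The single peak of Ma_1456 was 971 bp wide and began 198 bp inside the gene. These peaks were weak: the strongest ranked at percentile 34.0 of its list in Ma_1014 and 10.8 in Ma_1456 by the −log10 q. Of all protein-coding genes, 11.6% had a call in at least 2 of the other 6 lists and in none from the female ΔEcad lines.

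More lists held a distal peak of Ccn1 than a promoter peak. An intergenic element of 467 bp at −31.9 kb from the TSS was called in 5 lists, namely Ma_1014, Ma_1039, Ma_1062, Ma_1456 and Ma_1057. Its peaks were 257 to 456 bp wide, and they ranked highest in the male ΔEcad lines, at percentile 43.6 in Ma_1062 and 36.7 in Ma_1456, against 9.02 to 19.9 in the other 3. Ma_1007, Ma_1181, Ma_1064 and Ma_1069 held no peak in the window of 103 kb, and in these lists the nearest peak was 89.0 to 184 kb from the TSS. Distal coverage, the summed width of distal peaks in the window, was 0.096 ± 0.167 kb (SD, n = 3) in female ΔEcad lines and 0.297 ± 0.276 kb (SD, n = 6) in the others, which overlapped.

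Ccn2 (ENSMUSG00000019997.11, mm10 chr10:24595442-24598683, plus strand) encodes connective tissue growth factor, a second matricellular protein and a common readout of YAP activity. Its promoter peak was 1.58 kb wide in Ma_1007, 3.60 kb in Ma_1181, 2.16 kb in Ma_1014, 1.57 kb in Ma_1039 and 0.54 kb in Ma_1062. All 4 Ecad lists had the peak over the TSS, at percentiles 43.3 to 74.4 of their lists. The peak of Ma_1062, the only one in a ΔEcad line, ended 117 bp before the TSS and ranked at percentile 4.39. Of all protein-coding genes, 4.4% had a call in at least 5 of the other 6 lists and none from female ΔEcad lines, and 2.11% were called in all 4 Ecad lists and at most 1 of 5 ΔEcad lists.

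The 4 lists without the promoter, Ma_1456 and the 3 female ΔEcad lists, held no peak anywhere in the 103 kb around Ccn2, and their nearest peak lay 94.1 to 94.3 kb from the TSS. A window without peaks in at least 4 lists was found for 30.6% of protein-coding genes. A window empty in all 3 female ΔEcad lists with a peak in at least 5 of the other 6 was found for 2.57%.

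In the other 5 lists the same distal element was called, at −22.6 kb in intergenic sequence, chr10:24571075-24574657. Its peaks were 2871, 2611, 3523 and 3016 bp wide in Ma_1007, Ma_1181, Ma_1014 and Ma_1039, wider than the promoter peak in 3 of these 4 lists, and 706 bp in Ma_1062. They ranked at percentiles 53.9 to 64.3 in the Ecad lists and at 23.6 in Ma_1062. A second element at −25.6 kb was called in Ma_1014, Ma_1039 and Ma_1062, and Ma_1062 alone had a peak at 39.1 kb. An element at −3.23 kb had peaks of 1393 bp in Ma_1014, 554 bp in Ma_1039 and 2721 bp in Ma_1181, and none in a ΔEcad list. The peak of Ma_1181 lay 124 bp from a TSS of the neighbour Gm15270 and was not counted as distal, whereas the others were.

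Distal coverage of Ccn2 was 3.11, 2.61, 6.01 and 3.92 kb in the Ecad lines Ma_1007, Ma_1181, Ma_1014 and Ma_1039. It was 2.10 kb in Ma_1062 and 0 in the other 4 ΔEcad lines. The means were 0.419 ± 0.937 kb (SD, n = 5) in ΔEcad and 3.91 ± 1.5 kb (SD, n = 4) in Ecad, and every ΔEcad line lay below every Ecad line, as for 3.79% of the 13232 genes tested. The difference of −3.5 kb had an exact two-sided permutation p of 0.0159, which gave 0.332 after Benjamini-Hochberg adjustment over all genes tested. Of the 5 lists with a distal peak, through which Ccn2 passed the filter of at least 3 lists, 4 were Ecad lists, where it was high, which limits this p. Against the 6 other lines, the 3 female ΔEcad lines differed by −2.96 kb. For this contrast Ccn2 passed the filter only through the other 6 lists, so its p is not given. Females and males did not separate (1.99 ± 2.82 kb, n = 5, against 1.96 ± 1.37 kb, n = 4).

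**Figure D2:**
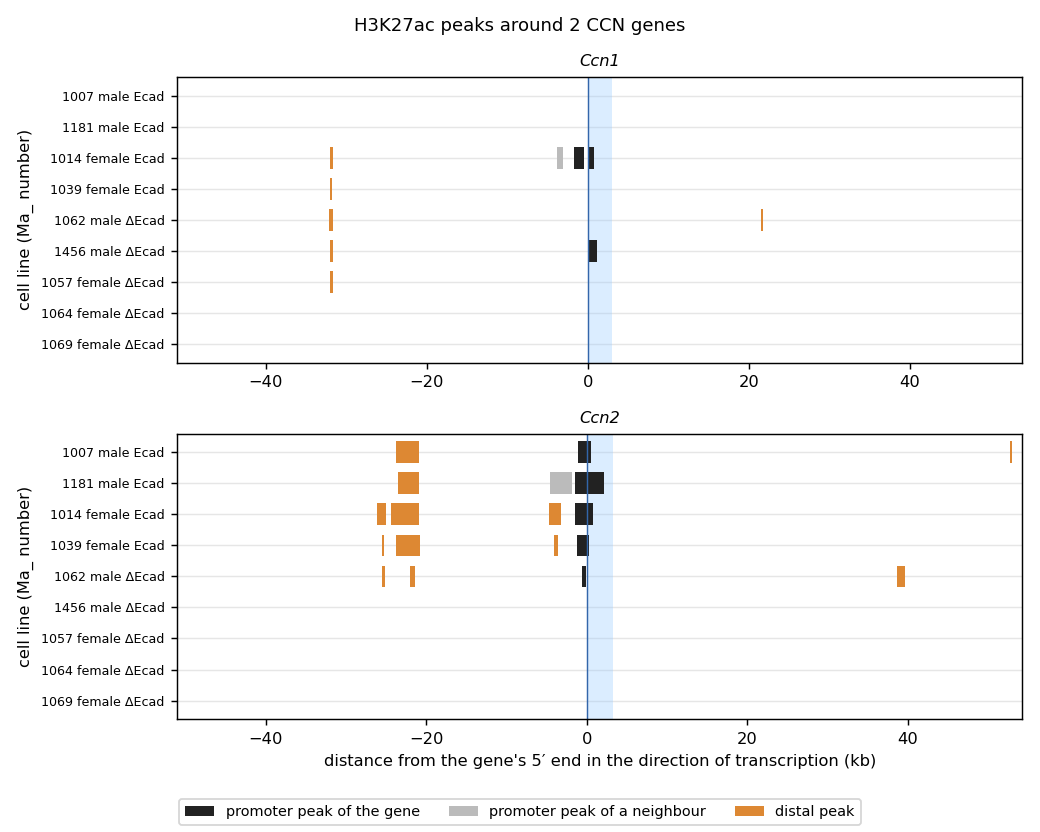
Peaks around Ccn1 (top) and Ccn2 (bottom) in each of the 9 lists, drawn to scale by distance from the 5′ end in kb, with the gene body shaded. Black is a promoter peak of the gene, grey a peak within 1 kb of another TSS and orange a distal peak; the last 4 rows of Ccn2 are empty, while the −31.9 kb element of Ccn1 is drawn in 5 rows.

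Crim1 (ENSMUSG00000024074.8, mm10 chr17:78200248-78376592, plus strand) encodes a transmembrane protein that binds bone morphogenetic proteins. Its promoter peak was 0.971, 0.402, 1.90 and 0.898 kb wide in Ma_1007, Ma_1181, Ma_1014 and Ma_1039, and covered the TSS in all 4. No ΔEcad list called it, and the nearest peak of these 5 lists to any TSS of the gene lay 3.504 to 3.73 kb from an internal one. From the 5′ end, the midpoint of their nearest peak lay at 16.5 kb (Ma_1062) to 41.7 kb (Ma_1064). The calls thus separated Ecad from ΔEcad lines completely, as did those of 0.621% of protein-coding genes. A call in at least 4 of the 6 lists outside the female ΔEcad lines, and in none of theirs, was found for 6.46%. The Ecad peaks ranked at percentiles 48.3 to 75.3.

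The body of Crim1, 176 kb long, held distal peaks in all 9 lists, including those without the promoter peak. All 10 distal elements lay within the gene, and 9 of them overlapped no annotated exon. The one at 41.5 kb was called in 8 lists, at percentiles 82.3 and 83.6 in the female Ecad lines, 50.6 to 74.7 in the female ΔEcad lines, and 16.9, 55.3 and 29.7 in the male lines Ma_1181, Ma_1062 and Ma_1456. Next to it, an element at 44.2 kb was called in the 2 female Ecad lists only. The neighbouring element at 47.5 kb (chr17:78246750-78248825) was called in the 3 female ΔEcad lists only, with widths of 1291, 1990 and 711 bp in Ma_1057, Ma_1064 and Ma_1069 and percentiles of 58.3, 64.7 and 22.5. Such regions, called in all 3 female ΔEcad lists and in 0 of the other 6, were 0.435% of all merged regions. An element at 50.6 kb was called in 7 lists and was widest, 2437 bp, in Ma_1069.

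Distal coverage of Crim1 was 0.57 and 0.977 kb in the male Ecad lines and 2.37 and 0.812 kb in their ΔEcad counterparts. Both female Ecad lines had more, at 5.51 and 4.88 kb. In female ΔEcad lines it was 4.34 kb for Ma_1057, 5.74 kb for Ma_1064 and 10.4 kb for Ma_1069. Every female line lay above every male line, and this held within Ecad and within ΔEcad. A gene with all female lines above all male lines was 0.726% of those tested. The means were 6.18 ± 2.43 kb (SD, n = 5) and 1.18 ± 0.807 kb (SD, n = 4). The difference of 5.0 kb had an exact p of 0.00794, the smallest that 126 assignments allow, and an adjusted p of 0.948.

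Female ΔEcad lines exceeded the other 6 by 4.31 kb (exact p = 0.0595, adjusted p = 0.399), by 2.52 kb without Ma_1069, and by 6.54 kb after scaling to the covered length of each list (exact p = 0.0119, the smallest possible, adjusted p = 0.195). The lines without the Crim1 promoter peak thus included those with the highest intragenic coverage: ΔEcad lines had 4.74 ± 3.69 kb (SD, n = 5) and Ecad lines 2.99 ± 2.57 kb (SD, n = 4), which overlapped (exact p = 0.452, adjusted p = 0.811). This difference of 1.75 kb was 0.33 kb without Ma_1069, 0.945 kb without Ma_1007 and 1.08 kb without Ma_1181, 2.73 kb without Ma_1456, and 3.29 kb after scaling.

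Amotl2 (ENSMUSG00000032531.15, mm10 chr9:102716672-102733418, plus strand) encodes an angiomotin family scaffold that binds YAP at cell junctions, so it is both a target and an inhibitor of YAP. Its 13 annotated TSSs spread across the gene. The summed width of its promoter peaks was 5.35, 6.35, 13.2 and 12.9 kb in the Ecad lines Ma_1007, Ma_1181, Ma_1014 and Ma_1039. Among ΔEcad males, Ma_1062 had 2.30 kb and Ma_1456 3.93 kb. Among ΔEcad females, Ma_1057 had 0.513 kb, Ma_1064 1.43 kb and Ma_1069 0.404 kb. The female Ecad lines were the widest and the female ΔEcad lines the narrowest, and by promoter peaks no ΔEcad line reached an Ecad line. With all peaks in the window counted, promoter or not, the lines overlapped: Ma_1456 had 6.43 kb, above Ma_1007 with 5.60 kb and Ma_1181 with 6.35 kb, and the female ΔEcad lines had 1.05 to 2.33 kb. Of the 4622 genes called in all 9 lists, 6.4% were wholly narrower in ΔEcad than in Ecad lines and 32.2% wholly narrower in female ΔEcad lines than in the other 6.

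The strongest promoter peak of Amotl2 ranked at percentiles 85.1 to 96.0 in the Ecad lists, 71.3 and 72.7 in the male ΔEcad lists and 44.3 to 70.7 in the female ΔEcad lists, each rank being taken within its own list. The highest deposited fold enrichment of a promoter peak over its local background was 22.1 to 31.5 in the Ecad lists, 11.9 and 12 in the male ΔEcad lists and 4.23 to 6.81 in the female ΔEcad lists. Peaks of the gene counted as distal reached a fold of 21.2 in Ma_1062 and 12.8 in Ma_1456, and 4.20 to 6.62 in the female ΔEcad lists. In Ma_1014 a single peak of 10276 bp reached from the first TSSs into the gene. The widest promoter peak of a ΔEcad list was 1834 bp, in Ma_1456, and these lists had 3 to 5 separate peaks within the gene.

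In the ΔEcad lists some of these peaks lay more than 1 kb from the nearest TSS and were counted as distal, although they fell within the stretch that merged with promoter peaks. Distal coverage of Amotl2 thus had the higher mean in ΔEcad lines (1.42 ± 0.934 kb, n = 5, against 0.0643 ± 0.129 kb in Ecad lines, n = 4). Every ΔEcad line lay above every Ecad line, as in 0.491% of genes tested, with an exact p of 0.0238 and an adjusted p of 0.356. Ma_1007 was the only Ecad list with a distal peak. Amotl2 therefore passed the filter of at least 3 lists through the ΔEcad lists, where it was high, which limits this p. Beyond 2.5 kb from every TSS the difference was −0.0643 kb. The strongest such peak, of 2054 bp, was in Ma_1062, where its percentile of 90.0 was above those of the strongest promoter peaks of the male Ecad lines Ma_1007 and Ma_1181, 86.5 and 85.1.

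Ajuba (ENSMUSG00000022178.11, mm10 chr14:54567472-54577558, minus strand) encodes a LIM domain protein of cell junctions that restrains the LATS kinases. It had 1 promoter peak in each list, whose width was 1.54, 1.33, 1.45 and 1.01 kb in the Ecad lines Ma_1007, Ma_1181, Ma_1014 and Ma_1039. The male ΔEcad lines had widths of 0.869 and 0.83 kb, and widths in female ΔEcad lines were 0.817, 0.922 and 0.734 kb. Every ΔEcad peak was narrower than every Ecad peak, as in 6.4% of genes called in all 9 lists, but female ΔEcad and male ΔEcad lines overlapped. Unlike that of the strongest Amotl2 promoter peak, the percentile did not separate the genotypes: it was 58.7 to 68.6 in Ecad and 34.2 to 77.6 in ΔEcad lists, and the highest was in the female ΔEcad line Ma_1064. The peak covered the TSS in 3 lists, Ma_1007, Ma_1181 and Ma_1014, and lay 50 to 152 bp from it in the other 6.

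**Figure D3:**
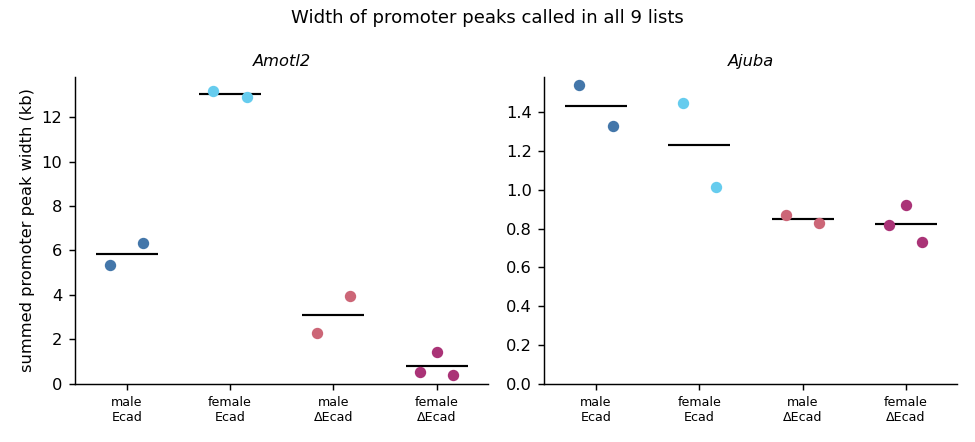
Summed width of peaks within 1 kb of a TSS of the gene, in kb, for Amotl2 (left) and Ajuba (right) by group; points are lines and horizontal bars are group means, and the vertical scales differ. All 5 ΔEcad points lie below all 4 Ecad points in both panels, with Amotl2 at 12.9 and 13.2 kb in the female Ecad lines.

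The window of Ajuba holds the promoters of Prmt5, Haus4, 4931414P19Rik, Psmb5 and Psmb11, and 35 of its 54 peaks lay at a neighbour's promoter. One distal element recurred, at −25.8 kb within an intron of 4931414P19Rik, and it was called in the 6 lists other than the female ΔEcad ones and in Ma_1064. Distal coverage was 1.22 to 1.35 kb in Ecad and 1.67 and 1.72 kb in male ΔEcad lines. It was 0, 0.745 and 0 kb in Ma_1057, Ma_1064 and Ma_1069. The female ΔEcad lines lay wholly below the other 6, as in 7.79% of genes tested. The difference of −1.18 kb had an exact p of 0.0119, the smallest that 84 assignments allow, and an adjusted p of 0.244. Ajuba passed the filter of at least 3 lists through the other 6 lists, where it was high, which limits this p. The element at −25.8 kb lies within 2.5 kb of a TSS of 4931414P19Rik, and with distal set at beyond 2.5 kb the difference was 0.039 kb.

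Ankrd1 (ENSMUSG00000024803.9, mm10 chr19:36111961-36120099, minus strand) encodes an ankyrin repeat cofactor of the nucleus that is abundant in muscle. No list had a peak within 30 kb of its TSS. An intergenic element at −30.6 kb was called in Ma_1007, Ma_1014 and Ma_1039, 3 of the 4 Ecad lists, at percentiles of at most 29.5. Distal coverage was 0.384, 0, 0.749 and 0.813 kb in the Ecad lines Ma_1007, Ma_1181, Ma_1014 and Ma_1039 and 0 in all 5 ΔEcad lines. The groups touched at 0. Ankrd1 entered the fit across genes only through the Ecad lists, so its p for this contrast is not given. The only other peaks in the window were at the promoter of Rpp30, in 6 lists.

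**Figure D4:**
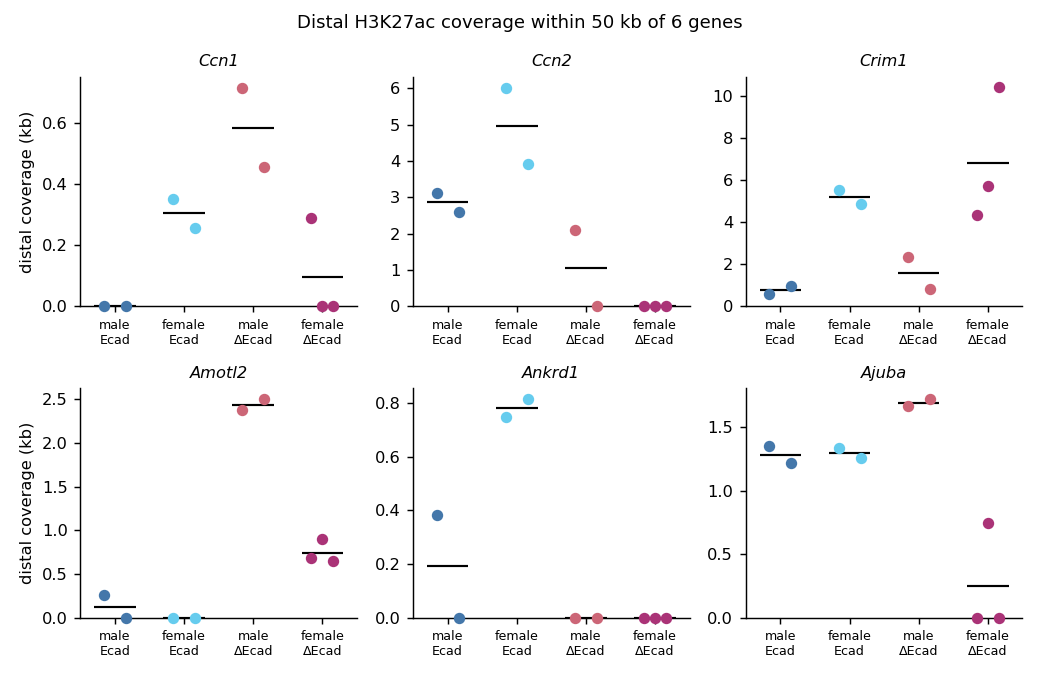
Distal H3K27ac coverage in kb within 50 kb of each of the 6 genes, by group; points are lines, horizontal bars are group means, and each panel has its own scale from 0. Ccn2 is at 0 in 4 of 5 ΔEcad lines, and the female groups of Crim1, from 4.34 to 10.4 kb, lie above the male groups.

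No gene passed an adjusted p under 0.05 for distal coverage in any of the 3 contrasts (exact permutation tests over 13232 genes). At an unadjusted p under 0.05 there were 1696 genes (12.8%) for female ΔEcad against the other lines, 1556 (11.8%) for ΔEcad against Ecad and 665 (5.03%) for female against male lines. The smallest adjusted p over all genes was 0.244, 0.258 and 0.948. The median difference over all genes was −0.502, −0.356 and −0.209 kb. The contrasts share lists, so a gene that moves in one can move in another.

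Pooled over the members, promoter and distal peaks differed in size, but not in the same direction for each gene. The 38 promoter peaks of the members had a median width of 1397 bp and a median percentile of 60.5. The 76 distal peaks had 812.5 bp and 42.9, and the 54 peaks at neighbours' promoters 880.5 bp and 49.9. Of the promoter peaks 17 were those of Amotl2, and of the distal peaks 33 were those of Crim1. By median, promoter peaks were wider and ranked higher in Ccn1, Ccn2 and Amotl2. In Ajuba, distal peaks were wider (1101 against 922 bp) and ranked higher (percentile 62.0 against 58.7). In Crim1, they were wider (1072 against 934.5 bp) but ranked lower (47.2 against 58.2). No value over all genes is given beside these. Read per line over all members, the median promoter peak was wider and ranked higher than the median distal peak in 8 of 9 lists. The margins were 569 ± 584 bp and 22.3 ± 17.2 percentile points (mean ± SD, n = 9 lists). Each female ΔEcad list held only 2 promoter peaks. With equally long lists the margins were 131 ± 521 bp and 8.73 ± 7.98 points. The margin was 51.3 points in Ma_1007 and 5.31 in Ma_1057. Ma_1069 was the exception, with a median width of 1112.5 bp for distal and 569 bp for promoter peaks, and 8 of its 10 distal peaks were those of Crim1.

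Genes with a like pattern of summed promoter width over the 9 lists were, for Ccn1, Flt3l, Tubg2 and Pianp (Pearson r = 0.999, 0.997 and 0.997, resting on the 2 lists with a call). For Ccn2 they were Rfc5, 2700062C07Rik and Ift27 (r = 0.984, 0.980 and 0.978). For Crim1 they were Cdc14b, Frs3 and Tnfrsf14 (r = 0.982, 0.979 and 0.979). These values share the 9 libraries. The exact call pattern of Ccn1 was shared with 14 genes, that of Ccn2 with 155 and that of Crim1 with 134.

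Other genes often used as YAP and TAZ targets gave a mixed picture. Of 17 such genes, 4 were called in all 9 lists, namely Asap1, Gadd45a, Lats2 and Rbms3, and 6 in none. Lats2 encodes a Hippo kinase. The female ΔEcad lists called 5 to 7 of the 17 and the other lists 6 to 11, which overlapped. The share of lists with a call was lower in female ΔEcad lines for 5 genes, higher for 2 and equal for 10, with a median difference of 0 points, as over all protein-coding genes. A difference of at least 50 points was seen for 3. F3, the gene of tissue factor, had a called promoter in 4 of the other 6 lists and in 0 of 3 from female ΔEcad lines. Dock5, an activator of the small GTPase Rac, had 5 of 6 and 0 of 3. Myof, which encodes the membrane protein myoferlin, had 3 of 6 and 3 of 3. Over all protein-coding genes, 13.6% were lower and 0.565% higher by at least 50 points.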

How the data were processed

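Peak lists were analysed from 9 H3K27ac ChIP-seq samples, and 4 input libraries were not analysed here. Per the labels and the study's methods, the authors aligned reads to GRCm38 (mm10) with Bowtie2 2.4.5, and MACS2 2.2.7.1 and deepTools 3.5.1.0.0 are named in the submitters' processing notes. Calling settings and the input used as control are not given in the sources used here. The deposited score is, in nearly all peaks, the −log10 q times 10, rounded down. The deposited fold enrichment is a ratio of peak height over local background. The deposited −log10 q was at least 5 in every list and ranked the peaks within each list, as a percentile. Replicates were not pooled.

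Groups followed the labels. The members and gene lists were chosen with earlier results of these data known. TSSs came from GENCODE M21. A peak was a promoter peak within 1 kb of a TSS of the gene, a neighbour's within 1 kb of another TSS, and otherwise distal. Its distance was taken from the 5′ end of the gene. Distal coverage was tested for the 13232 protein-coding genes with a distal peak in at least 3 of 9 lists by exact two-sided permutation of the lists (84 or 126 assignments) with Benjamini-Hochberg adjustment, in Python 3.11.15 with numpy 2.4.6 and pandas 2.3.3, and was tested on simulated data. Named were the 6 genes, their neighbours, the 3 genes with the likest promoter width for members called in 2 to 8 lists, and those of 17 other targets whose calls differed by at least 50 points. Alternatives were peaks at or above the median −log10 q of each list, equally long lists of 20741 peaks, peaks of at least 500 bp, windows of 20 and 100 kb, other TSS distances, scaling to the covered length, no filter and leaving out each line.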

Additional observations from a re-analysis of the deposited data

Results flagged for a closer look

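A line stood apart from the rest of its arm by Dixon's ratio in 9 of 53 arms of the members' distal coverage and promoter widths. The usual chance rate of about 1 of 20 arms does not hold here, since many values were 0 and the arms share lines. In 8 of the 9 flagged arms 1 line had a peak where the others of the arm had none, which sets the ratio at its highest value whatever the width. These were the Ccn1 promoter width of 2.06 kb in Ma_1014 (among Ecad and among female lines) and of 0.971 kb in Ma_1456 (among ΔEcad and among male lines), the Ccn2 promoter width of 0.54 kb and distal coverage of 2.10 kb in Ma_1062, the Amotl2 distal coverage of 0.257 kb in Ma_1007 among Ecad lines and the Ankrd1 distal coverage of 0.384 kb in Ma_1007 among male lines. In the last, Ma_1069 had 10.4 kb of Crim1 distal coverage among the female lines. The distal coverage of Ajuba differed between genotypes in opposite directions in the 2 sexes. ΔEcad minus Ecad lines was −1.05 kb in females and 0.412 kb in males, with no overlap in either sex. Opposite directions without overlap were seen in 6.43% of genes tested, and this difference between sexes was not tested. The recurring element at −25.8 kb did not turn: it was 1109 and 1093 bp wide in male ΔEcad lines and 1350 and 1217 bp in male Ecad lines. The rest of the male ΔEcad coverage was a peak of 562 bp in Ma_1062 and one of 627 bp in Ma_1456, each counted as distal in no other list. That of Ma_1062 lay 1359 bp from a neighbour's TSS, close to the limit of 1 kb.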

How the results depend on the processing

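No paired analysis was possible because the lines carry no shared replicate number in the labels. The count of genes past an adjusted p of 0.05 was 0 in all 3 contrasts under every alternative. The difference in called members between the female ΔEcad lists and the other 6 was −2.50 genes when a peak had to cover the TSS, −1.33 with equally long lists and with peaks at or above the median −log10 q of each list, −2 with peaks of at least 500 bp, and −2 to −1.60 with 1 line left out. Over all protein-coding genes the female ΔEcad lists also called fewer promoters. They called 3191 to 4557 against 5782 to 9192 when a peak had to cover the TSS, and 5556 to 6102 against 7304 to 9074 with equally long lists. The counts were 3311 to 4741 against 5503 to 8646 at or above the median, and 4319 to 5899 against 7159 to 9707 for peaks of at least 500 bp. With peaks at or above the median −log10 q of each list only, promoter peaks ranked 4.78 percentile points above distal peaks and were wider by 257 bp. With equally long lists the margins were 8.73 points and 131 bp, and with peaks of at least 500 bp 9.47 points and 319 bp; leaving out a line gave 18.7 to 26.0 points and 463 to 708 bp. Among those upper peaks no Ccn1 promoter was left, and Ccn2 kept 2 lists and Crim1 3, none of them ΔEcad. With equally long lists Ccn2 kept 3, Crim1 4 and Ccn1 1.

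Directions that turned were all of differences with adjusted p above 0.05. For female minus male, Ccn2 distal coverage was −0.0627 kb with those upper peaks, −0.237 kb with equally long lists and −0.551 kb beyond 2.5 kb, and −0.975 to 0.528 kb with 1 line left out; Ccn1 was 0.558 kb in the window of 100 kb and −0.211 to 0.0276 kb with 1 line left out, and Ankrd1 −0.188 kb in that window. For ΔEcad minus Ecad, Ccn1 was −0.468 kb in the window of 100 kb, Ajuba 0.238 kb in that of 20 kb and 0.212 kb beyond 2.5 kb, and Amotl2 −0.0643 kb beyond 2.5 kb. For female ΔEcad minus the other lines, Amotl2 was 0.0705 kb after scaling and −0.283 to 0.217 kb with 1 line left out, and Ajuba 0.0392 kb beyond 2.5 kb. The Crim1 difference between females and males was 3.90 to 6.13 kb over all alternatives, with adjusted p from 0.705 to 1, and the Ccn2 difference between genotypes −5.81 to −0.487 kb, with adjusted p from 0.237 to 0.590 where it was tested. Ccn2 passed the filter mainly through the Ecad lists, which limits its p. The depth of the libraries is unknown, and weaker lists can miss peaks.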
